A study of Homo sapiens with 12 samples.

Results

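Oleate added to palmitate was compared with palmitate alone in HepaRG cells, an established human hepatic line that can take on hepatocyte-like and bile duct-like states in culture. The comparison uses 6 of the 12 libraries of the series, 3 labelled PA+OA and 3 labelled PA, all from wild-type cells. In the PA group the saturated fatty acid palmitate, carrying deuterium, was given at 400 µM for 4 h. PA+OA cultures had the monounsaturated oleate at 200 µM in addition to the same palmitate over the same 4 h. Total fatty acid therefore differed between these groups along with its kind, and no library has oleate alone. The remaining groups, each of 3 libraries, were an untreated control and PA+BMS, in which 50 µM BMS-309403, an inhibitor of a fatty acid-binding protein, was present for 24 h and palmitate for 4 h. Genes were taken where at least 3 of the 6 PA and PA+OA libraries reached 1 FPKM (fragments scaled to transcript length and library size), which 11070 of 58735 genes did. The question is which transcripts differ when a monounsaturated fatty acid accompanies the saturated one.

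Saturated fatty acids load membranes of the endoplasmic reticulum (ER) and are known to set off the unfolded protein response, in which the sensors IRE1, PERK and ATF6 raise chaperones, ER-associated degradation and, through eIF2-alpha phosphorylation, the transcription factors ATF4 and CHOP. Monounsaturated fatty acids are readily stored as triglyceride and are widely used as a counterpart to palmitate in hepatocyte models. Sterol and unsaturated fatty acid levels are read by the SREBP transcription factors, which drive cholesterol and fatty acid synthesis and uptake of low-density lipoprotein. Heat shock factor 1 governs cytosolic chaperones when proteins misfold outside the ER.

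PA+OA 1 stood apart from the rest of its group. On the leading principal component, with 56.2% of the variance, it lay at 53.8 while PA+OA 2 and 3 lay at 17.7 and 10.7. Its recovered read counts differed from those of PA+OA 2 and 3 by a chi-square per gene of 62.1 and 74.8, against 7.14 between PA+OA 2 and 3. GC content and gene length accounted for 42.1% of the variance of its difference from the mean of PA+OA 2 and 3, and its FPKM values summed to 402688 against 302769 and 299034. The genes described in full are therefore given with and without this library. PA+BMS 3 also stood apart, at -50.0 on that component against -16.4 and -19.2 for PA+BMS 1 and 2, with a chi-square per gene of 66.3 and 63.6 from them against 3.63 between them. The 6 libraries held 17123503 to 18826443 reads. Nothing in the labels says that replicates came from separate cultures, so p-values measure a spread that may be technical. Defining hepatocyte genes were nearly absent: 3 of 26 markers reached 1 FPKM in a library, ALB (albumin) had no read in any of the 6, and summed marker levels spanned 124.5 to 152.9 FPKM in PA and 128.2 to 140.2 in PA+OA, most of it CPS1 and HPD. Of 16 bile duct markers 9 reached 1 FPKM, with sums of 1075 to 1339 in PA and 997.6 to 1773 in PA+OA, though KRT19 stayed at or below 0.0512. Of 22 stellate, macrophage and endothelial markers 5 did so, with sums of 12.8 to 13.2 and 9.49 to 11.9. The part of marker levels in the results was not tested, and in bulk RNA fewer cells of a type cannot be told apart from less RNA per cell.

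**Figure D1:**
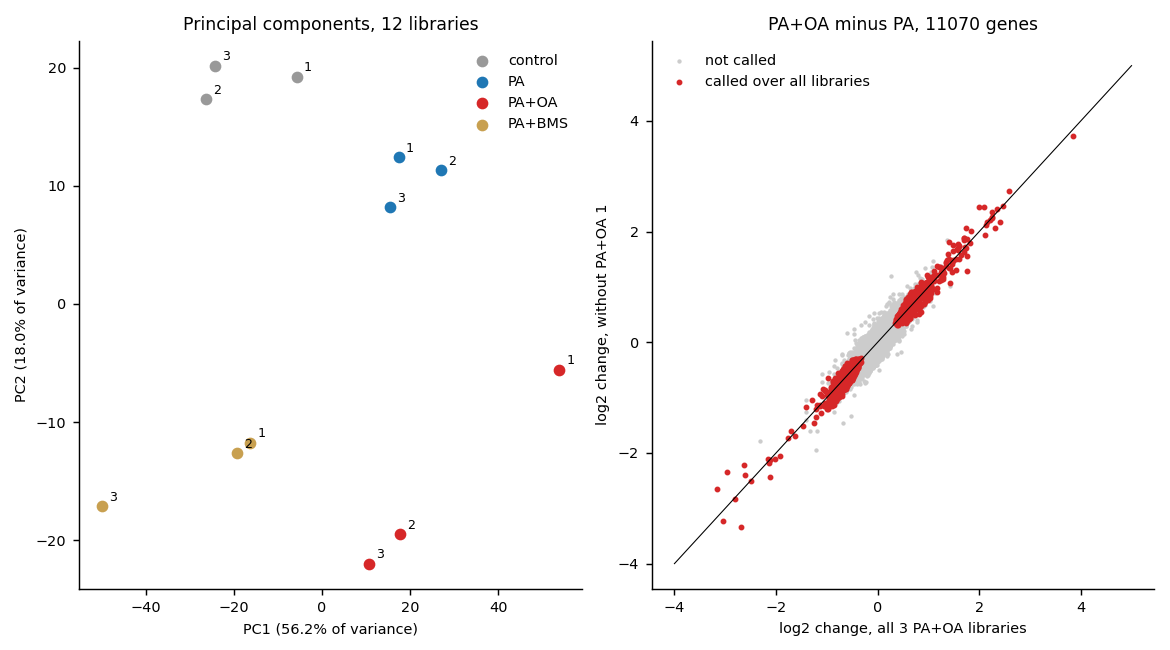
Left, the 12 libraries on the first and second principal components of log2(FPKM + 1), numbered by replicate; PA+OA 1 lies far to the right of PA+OA 2 and 3. Right, the log2 change between PA+OA and PA of each of the 11070 genes over all libraries (horizontal) and without PA+OA 1 (vertical), with the 960 genes called over all libraries in red, which lie near the diagonal.

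Of the 11070 genes, 960 (8.67%) passed an adjusted p of 0.05 between PA+OA and PA (limma on log2(FPKM + 1), Benjamini-Hochberg adjustment). They were 493 that rose with oleate (4.45%) and 467 that fell (4.22%). The change was at least 2-fold for 133 (1.20%), of which 94 rose and 39 fell, and for 160 (1.45%) without PA+OA 1. Over all genes the median log2 change was -0.0046. Without PA+OA 1 the number called was 1981 (17.9%), 816 up (7.37%) and 1165 down (10.5%), and 905 of the 960 were among them. Rises made up 51.4% of calls over all libraries, 41.2% without PA+OA 1 and 39.9% among genes of at least 5 FPKM. In 2813 genes (25.4%) the 3 PA+OA libraries lay all above or all below the 3 PA libraries. Genes that fell had a median GC content of 55.6%, those that rose 48.1% and all tested genes 49.8%. GC content and gene length accounted for 8.46% of the variance of the log2 changes over all libraries and 16.2% without PA+OA 1. The rank correlation (Spearman) of the changes with GC content was -0.211 over all libraries and -0.459 without PA+OA 1. Changes without that library thus followed GC content more closely, not less. With GC and length trends taken out over all libraries, 801 genes rose (7.24%) and 806 fell (7.29%). Below, library values follow the order of replicates 1, 2 and 3. Changes are log2 differences of log2(FPKM + 1) with their standard error (SE), a scale that understates folds of weakly expressed genes. A list's counts over all libraries can be read against 4.45% rising and 4.22% falling, and those without PA+OA 1 against 7.37% and 10.5%. With both PA+OA 1 and PA+BMS 3 left out, 1311 of the 11070 genes rose and 1726 fell, so list counts of that fit have a higher background. A gene under 1 FPKM in every library of 1 group passed the filter only through the other group, which fixed its direction.

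A few genes of ER protein folding were among the clearest rises, while most of the list did not pass. Of 29 tested members, 7 rose and none fell, with a median change of 0.09. Called or not, the change was positive in 19 members and negative in 10. HSPA5 encodes BiP, the main ER chaperone and the partner that holds the stress sensors inactive. Its gene (ENSG00000044574) lies on chromosome 9, 125234853 to 125241330, on the minus strand of GRCh38. HSPA5 was at 171, 173 and 168 FPKM in PA and 445, 653 and 590.2 in PA+OA. The groups were far apart, the lowest PA+OA library being PA+OA 1, and the change was 1.696 ± 0.15 (SE), adjusted p = 4.94e-05, and 1.86 without PA+OA 1. DNAJB9, an ER co-chaperone that passes misfolded proteins to BiP, was at 4.09, 4.04 and 4.03 FPKM in PA and 22.4, 23.4 and 23.5 in PA+OA. Within each group its libraries nearly coincided, and it rose by 2.25 ± 0.09 (SE), adjusted p = 1.38e-07, and 2.27 without PA+OA 1. FICD, the enzyme that modifies BiP and switches its activity, was at 1.68, 1.85 and 2.02 FPKM in PA and 6.18, 8.56 and 7.83 in PA+OA. No library overlapped with the other group, and the rise was 1.57 ± 0.13 (SE), adjusted p = 3.53e-05, and 1.69 without PA+OA 1. MANF, a secreted ER stress factor that binds BiP, was at 20.4, 21.6 and 19.9 FPKM in PA and 40.3, 40.8 and 37.5 in PA+OA, a rise of 0.91 ± 0.11 (SE), adjusted p = 0.000485, and 0.89 without PA+OA 1. PDIA4, a protein disulphide isomerase, rose by 0.65 ± 0.11 (SE), adjusted p = 0.00321, and 0.72 without PA+OA 1. HYOU1, an exchange factor and chaperone for BiP, rose by 0.51 ± 0.09 (SE), adjusted p = 0.00365, and 0.51 without PA+OA 1. CRELD2, an ER stress-induced secreted protein, rose by 0.56 ± 0.14 (SE), adjusted p = 0.0269, and 0.45 without PA+OA 1, a call lost in 4 of the 12 single-library omissions (adjusted p = 0.0794 without PA 1, 0.0902 without PA 2, 0.0791 without PA 3, 0.0755 without PA+OA 2). Calls also lost in other fits, with their adjusted p, were HYOU1 (0.0595 with only these 2 groups fitted) and CRELD2 (0.0634 with no filter, 0.0669 with only these 2 groups fitted).

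The remaining 22 folding genes did not pass. HSP90B1, which encodes GRP94, the ER member of the HSP90 family, was at 66.2, 58.1 and 71.5 FPKM in PA and 67, 91.4 and 104 in PA+OA. PA+OA 1 lay among the PA libraries and PA+OA 2 and 3 above them. Its change was 0.40 ± 0.19 (SE), adjusted p = 0.259, and 0.58 without PA+OA 1 (adjusted p = 0.0461), so its call rests on that library. SDF2L1, part of the BiP complex, was at 70.8, 72.9 and 63.2 FPKM in PA and 123, 80.5 and 67.2 in PA+OA. PA+OA 3 lay among the PA libraries, and the change was 0.34 ± 0.20 (SE), adjusted p = 0.363, and 0.09 without PA+OA 1. Over the list, 9 members rose and 1 fell without PA+OA 1.

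Promoters of HSPA5 and HSP90B1 are shown because these chaperones carry the ER stress element (ERSE), the site of ATF6 and XBP1, and differ in how they responded. Each is the 250 bases before the RefSeq start (GRCh38.p14), 5′ to 3′ on the gene's strand, with ERSE matches in capitals. HSPA5 covers chr9:125241344-125241593 on the minus strand and HSP90B1 chr12:103930160-103930409 on the plus strand.
HSPA5: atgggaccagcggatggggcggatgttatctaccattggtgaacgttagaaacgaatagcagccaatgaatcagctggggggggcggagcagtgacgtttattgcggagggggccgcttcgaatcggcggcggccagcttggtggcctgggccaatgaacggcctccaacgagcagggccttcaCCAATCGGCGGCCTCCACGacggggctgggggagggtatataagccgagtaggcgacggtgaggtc
HSP90B1: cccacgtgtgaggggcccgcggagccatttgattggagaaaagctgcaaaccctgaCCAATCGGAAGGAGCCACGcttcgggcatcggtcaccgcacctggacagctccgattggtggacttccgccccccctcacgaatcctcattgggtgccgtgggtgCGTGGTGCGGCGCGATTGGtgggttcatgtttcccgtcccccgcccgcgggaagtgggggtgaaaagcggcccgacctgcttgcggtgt
The letters searched were CCAAT and CCACG with any 9 bases between them, on both strands, from 250 bases before to 50 after the start. HSPA5 held 1 match, 66 to 48 bases before the start. HSP90B1 held 2, at 194 to 176 and, on the reverse strand, at 89 to 71. Among 27 tested folding genes with a promoter in the RefSeq collection, 7 held a match (25.9%), against 25 of 27305 genes (0.0916%). They were HSPA5, HSP90B1, CALR, CANX, PDIA6, CRELD2 and FICD, of which HSPA5, FICD and CRELD2 rose, while CALR, CANX and PDIA6, which encode calreticulin, calnexin and a disulphide isomerase, changed by 0.26, 0.04 and -0.12 (0.13, 0.21 and -0.11 without PA+OA 1) and did not pass. A match describes the letters and is not evidence of binding.

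ER-associated degradation and the sensors of the unfolded protein response rose in fewer members, 4 of 26 tested, with none falling and a median of 0.15. HERPUD1, which organises the ubiquitin ligase complex that clears misfolded ER proteins, was at 38.2, 42.9 and 42.6 FPKM in PA and 192, 186 and 202 in PA+OA. All PA+OA libraries were several times above all PA libraries, and the rise was 2.20 ± 0.20 (SE), adjusted p = 4.94e-05, and 2.21 without PA+OA 1. XBP1, the transcription factor spliced by IRE1, was at 115, 113 and 109 FPKM in PA and 192, 189 and 176 in PA+OA and rose by 0.72 ± 0.11 (SE), adjusted p = 0.0021, and 0.69 without PA+OA 1. Its spliced and unspliced forms are not separated in gene-level values. SYVN1, the ubiquitin ligase HRD1, rose by 0.60 ± 0.11 (SE), adjusted p = 0.00553, and 0.55 without PA+OA 1. ERN1, the sensor IRE1-alpha, was at 2.25, 2.24 and 2.47 FPKM in PA and 2.68, 5.26 and 5.22 in PA+OA. Only PA+OA 1 was close to the PA libraries, and the rise was 0.66 ± 0.19 (SE), adjusted p = 0.0487, and 0.91 without PA+OA 1, a call that 9 of the 12 single-library omissions removed (adjusted p = 0.0704 without control 2, 0.0564 without control 3, 0.146 without PA 1, 0.134 without PA 2, 0.102 without PA 3, 0.179 without PA+OA 2, 0.163 without PA+OA 3, 0.0665 without PA+BMS 1, 0.0692 without PA+BMS 2). EIF2AK3, the sensor PERK, and ATF6 changed by -0.40 and 0.22 (-0.18 and 0.31 without PA+OA 1) and did not pass. Without PA+OA 1, 6 members rose and 2 fell. The 13 tested eIF2-alpha kinases, eIF2B subunits and phosphatase partners had no call by limma or by voom, with 1 higher and 0 lower at an unadjusted p under 0.05. Among these, 1 rose without PA+OA 1. By adjusted p, other fits also ended the call of ERN1 (0.0618 at a pseudocount of 0.1, 0.137 with no filter, 0.125 with equal library totals, 0.121 with only these 2 groups fitted, 0.0512 with a replicate block).

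Effectors of the integrated stress response, the programme downstream of eIF2-alpha phosphorylation, rose in 7 of 25 members and fell in 1, with a median of 0.49. DDIT3, which encodes the pro-apoptotic factor CHOP, was at 21, 23.7 and 23.4 FPKM in PA and 113, 122 and 103 in PA+OA. The groups did not approach each other and the rise was 2.26 ± 0.41 (SE), adjusted p = 0.00479, and 2.25 without PA+OA 1. ATF3, a stress-induced repressor, was at 33, 41.5 and 34.9 FPKM in PA and 120.5, 129 and 117 in PA+OA, a rise of 1.72 ± 0.26 (SE), adjusted p = 0.00201, and 1.73 without PA+OA 1. PPP1R15A, which encodes GADD34, the subunit that directs dephosphorylation of eIF2-alpha, was at 82.8, 95.3 and 80.7 FPKM in PA and 263, 203 and 179 in PA+OA. Highest was PA+OA 1, and the rise was 1.29 ± 0.25 (SE), adjusted p = 0.00703, and 1.14 without PA+OA 1. FGF21, a hormone secreted by stressed liver cells, was at 2.82, 3.16 and 3.43 FPKM in PA and 18, 12.7 and 9.71 in PA+OA. Its lowest PA+OA library lay well above PA, and the rise was 1.77 ± 0.27 (SE), adjusted p = 0.00191, and 1.55 without PA+OA 1. TNFRSF10B, the death receptor DR5 and a CHOP target in lipotoxic hepatocytes, rose by 0.54 ± 0.10 (SE), adjusted p = 0.00552, and 0.63 without PA+OA 1. TSC22D3, also a glucocorticoid target, rose by 1.05 ± 0.21 (SE), adjusted p = 0.00765, and 0.92 without PA+OA 1. TRIB3, a pseudokinase that restrains ATF4 and AKT, was at 231, 251 and 217 FPKM in PA and 648, 388 and 401 in PA+OA. Far above the other libraries was PA+OA 1, and the rise was 0.998 ± 0.24 (SE), adjusted p = 0.0252, and 0.76 without PA+OA 1, a call lost in 3 omissions (adjusted p = 0.0859 without PA 1, 0.0615 without PA 2, 0.0859 without PA 3). VLDLR, a lipoprotein receptor, fell by 0.46 on the log2 scale (adjusted p = 0.0266; -0.37 without PA+OA 1), a call lost in 2 omissions (adjusted p = 0.108 without PA 1, 0.0978 without PA 3). Without PA+OA 1, 8 members rose and 1 fell, and without control 1 the counts were 11 and 2. Other fits, again by adjusted p, lost TNFRSF10B (0.0659 with only these 2 groups fitted), TRIB3 (0.0879 with no filter) and VLDLR (0.123 with equal library totals, 0.106 with only these 2 groups fitted).

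ATF4 itself, the factor that leads this programme, was at 396, 410.2 and 397 FPKM in PA and 528, 424 and 381 in PA+OA. PA+OA 3 was the lowest of the 6 and PA+OA 1 the highest, and the change was 0.13 ± 0.32 (SE), adjusted p = 0.884, and 0.00 without PA+OA 1. CHAC1, a glutathione-degrading enzyme under ATF4, was at 71.8, 90.6 and 84.6 FPKM in PA and 194, 125 and 126 in PA+OA. Its PA+OA libraries were all above PA, but its change of 0.82 ± 0.65 (SE), adjusted p = 0.547, and 0.61 without PA+OA 1 did not pass, with an adjusted p of 0.0474 without control 1. GDF15, a stress-induced circulating hormone, was at 125, 197 and 165 FPKM in PA and 359, 238 and 243 in PA+OA, a change of 0.78 ± 0.37 (SE), adjusted p = 0.244, and 0.59 without PA+OA 1. HMOX1, haem oxygenase, changed by 0.37 ± 0.22 (SE), adjusted p = 0.381, and 0.18 without PA+OA 1. ASNS, asparagine synthetase, was at 2.4, 2.56 and 2.47 FPKM in PA and 5.29, 6.1 and 6.58 in PA+OA, and this ATF4 target rose by 1.003 ± 0.11 (SE), adjusted p = 0.000274, and 1.08 without PA+OA 1. The 20 cytosolic tRNA synthetases tested, also known ATF4 targets, had no call by limma or by voom and none at an unadjusted p under 0.05 in either direction, with a median of 0.02. When PA+OA 1 and PA+BMS 3 were both left out, 1 of them rose and 1 fell.

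The FGF21 promoter is shown because it carries the composite element of ATF4 and CHOP in a strongly responding gene. It spans chr19:48755274-48755523 on the plus strand (GRCh38.p14, RefSeq), 250 bases to the start, with the match in capitals.
FGF21: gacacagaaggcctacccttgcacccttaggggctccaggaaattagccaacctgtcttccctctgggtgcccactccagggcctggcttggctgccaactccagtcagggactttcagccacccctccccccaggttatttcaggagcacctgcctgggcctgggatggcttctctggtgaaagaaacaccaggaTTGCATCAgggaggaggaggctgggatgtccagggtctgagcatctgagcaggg
The letters searched were TGATGNAA on both strands, and the match is on the reverse strand, 54 to 47 bases before the start. Of 21 tested members of the list with a promoter there, 6 held one (28.6%), against 4.46% of 27305 genes. These were ATF3, CHAC1, CEBPG, FGF21, CARS and JDP2, of which ATF3 and FGF21 rose and the others did not pass. Of the tRNA synthetases 5 of 12 held one (41.7%).

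**Figure D2:**
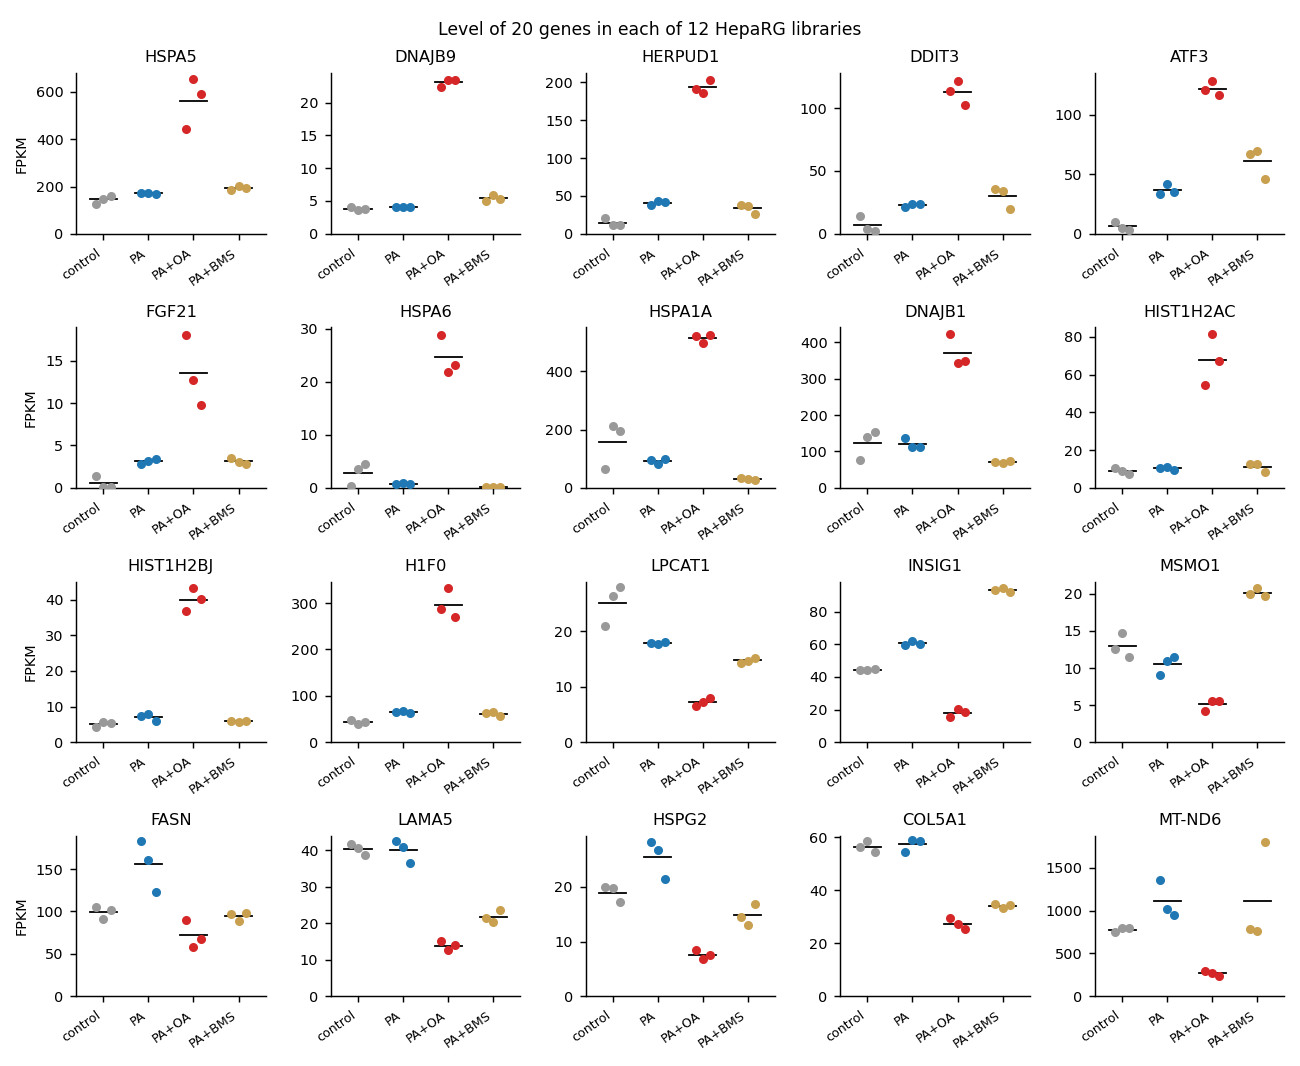
FPKM of 20 genes in each of the 12 libraries, 1 panel per gene, with points for replicates coloured by group (control, PA, PA+OA, PA+BMS). HSPA6 was near 0.8 in PA and between 21.8 and 28.8 in PA+OA, while INSIG1 was at 59.9 or more in PA and at 20.4 or less in PA+OA.

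Heat shock genes rose in 10 of 28 tested members with none falling, and the median was 0.40 (11 rises without PA+OA 1). Most of the list is cytosolic, but it also holds the mitochondrial chaperonin gene HSPD1 and SERPINH1, a collagen chaperone of the ER. HSPA6, an HSP70 that is made almost only under stress, had the largest rise of all protein-coding genes named here. Its gene lies on chromosome 1, 161524540 to 161526910. HSPA6 was at 0.707, 0.865 and 0.766 FPKM in PA and 28.8, 21.8 and 23.2 in PA+OA. It was under 1 FPKM in every PA library and above 20 in every PA+OA library, and the rise was 3.84 ± 0.38 (SE), adjusted p = 0.000101, and 3.73 without PA+OA 1. It thus passed the filter only through PA+OA, where it had to be higher, and its call held with no filter. HSPA1A, the major inducible HSP70, was at 96.2, 82.2 and 98.9 FPKM in PA and 521, 495 and 526 in PA+OA, a rise of 2.47 ± 0.33 (SE), adjusted p = 0.000929, and 2.46 without PA+OA 1. HSPA1B, its near-identical neighbour, was at 66.9, 55 and 63.6 FPKM in PA and 280.1, 261 and 283 in PA+OA, a rise of 2.14 ± 0.36 (SE), adjusted p = 0.00313, and 2.12 without PA+OA 1. How reads were divided between HSPA1A and HSPA1B is uncertain. DNAJB1, the HSP40 partner of HSP70, was at 138, 113 and 113 FPKM in PA and 423, 343 and 348 in PA+OA, a rise of 1.61 ± 0.21 (SE), adjusted p = 0.00089, and 1.51 without PA+OA 1. BAG3, a co-chaperone of selective autophagy, was at 41.6, 42.2 and 43.6 FPKM in PA and 102, 106 and 119 in PA+OA, and rose by 1.34 ± 0.18 (SE), adjusted p = 0.000884, and 1.38 without PA+OA 1. HSPB8, the small heat shock protein that works with BAG3, rose by 0.77 ± 0.10 (SE), adjusted p = 0.000832, and 0.75 without PA+OA 1. The factor that drives these genes, HSF1, was at 55.9, 55.6 and 46.7 FPKM in PA and 70.7, 40.7 and 43.3 in PA+OA. Its groups overlapped and its change of -0.07 ± 0.18 (SE), adjusted p = 0.889, and -0.32 without PA+OA 1 did not pass. Constitutive chaperones did not pass either: HSPA8 changed by 0.45 and HSP90AB1 by 0.03 (0.47 and 0.08 without PA+OA 1). A call was gained by adjusted p in another fit for HSF1 (0.0277 with array weights). The count of rising members stayed within 1.5 times under each single-library omission. No call was made among 33 proteasome subunits and regulators by limma or voom, and none had an unadjusted p under 0.05 in either direction. Their median moved from 0.003 to -0.16 without PA+OA 1, and 6 fell without PA+OA 1 and PA+BMS 3.

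The HSPA6 promoter is shown as that of the strongest riser. It spans chr1:161524290-161524539 on the plus strand (GRCh38.p14, RefSeq), with a heat shock element in capitals.
HSPA6: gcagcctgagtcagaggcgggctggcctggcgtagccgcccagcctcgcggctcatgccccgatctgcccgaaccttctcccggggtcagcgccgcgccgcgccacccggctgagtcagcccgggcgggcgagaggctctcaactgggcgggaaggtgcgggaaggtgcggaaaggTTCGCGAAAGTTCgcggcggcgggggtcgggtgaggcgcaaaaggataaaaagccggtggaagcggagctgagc
The letters searched were GAA, TTC and GAA with any 2 bases between each, on both strands, and the reverse-strand match lies 74 to 62 bases before the start. Among 26 tested heat shock genes with a promoter there, 8 held a match (30.8%), against 0.608% of 27305 genes. They were HSPA6, HSPA8, HSP90AA1, HSP90AB1, HSPD1, DNAJA1, SERPINH1 and CHORDC1, of which only HSPA6 passed.

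Most of the replication-dependent histone genes that could be tested rose. Of 50 listed genes 26 passed the filter and 24 did not, and a gene that passed only through the PA+OA libraries had to be higher there, so the count is a description: 19 rose, none fell, 7 did not pass and the median was 1.30 (20 rises without PA+OA 1). At a filter of 5 FPKM 9 rose, beside 269 of all 6214 genes tested at that filter. Genes under 5 FPKM in every PA library, such as HIST1H2BO, passed that filter only through PA+OA and had to be higher there. HIST1H2AC, an H2A gene at chromosome 6, 26124145 to 26139116, was at 10.7, 11.1 and 9.34 FPKM in PA and 54.7, 81.4 and 67.1 in PA+OA. All PA+OA libraries were above 50 FPKM and all PA libraries under 12, a rise of 2.58 ± 0.18 (SE), adjusted p = 8.76e-06, and 2.73 without PA+OA 1. HIST1H2BJ, an H2B gene, was at 7.37, 7.81 and 6.04 FPKM in PA and 36.9, 43.2 and 40.1 in PA+OA, a rise of 2.35 ± 0.12 (SE), adjusted p = 4.35e-07, and 2.41 without PA+OA 1. HIST1H2BO was at 3.77, 2.69 and 2.31 FPKM in PA and 15.2, 19.4 and 18.1 in PA+OA and rose by 2.26 ± 0.31 (SE), adjusted p = 0.000983, and 2.35 without PA+OA 1. HIST1H2BD was at 6.73, 8.38 and 7.46 FPKM in PA and 24, 28.9 and 31 in PA+OA, a rise of 1.76 ± 0.17 (SE), adjusted p = 9.95e-05, and 1.86 without PA+OA 1. HIST1H4I, an H4 gene, rose by 1.54 ± 0.14 (SE), adjusted p = 5.19e-05, and 1.51 without PA+OA 1. HIST2H2BE, from the chromosome 1 cluster, rose by 1.58 ± 0.13 (SE), adjusted p = 3.21e-05, and 1.69 without PA+OA 1. H1F0, the replacement linker histone H1.0, whose message is polyadenylated and which is outside the list, was at 65.2, 68.1 and 63.1 FPKM in PA and 287, 332 and 271 in PA+OA. It rose by 2.16 ± 0.12 (SE), adjusted p = 9.83e-07, and 2.18 without PA+OA 1. Canonical histone mRNAs mostly lack a poly(A) tail and the libraries were made with poly-T beads, so these values cover the polyadenylated part. Reads of near-identical histone genes cannot be assigned with certainty. Of 30 cell cycle genes tested, 1 rose and none fell, with a median of 0.03. Leaving out PA+OA 1 gave counts of 2 and 2 and a median of -0.05, and without PA 2 or PA+OA 2 none rose.

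Genes of sterol control and lipoprotein uptake mostly fell where they passed. Of 15 tested members 5 fell and 1 rose, with a median of -0.24. INSIG1, the ER protein that holds back SREBP processing and is itself an SREBP target, was at 59.9, 62.1 and 60.0 FPKM in PA and 15.7, 20.4 and 18.3 in PA+OA. All PA+OA libraries lay far under all PA libraries, with a change of -1.70 ± 0.11 (SE), adjusted p = 3.39e-06, and -1.60 without PA+OA 1. LRP1, a large endocytic receptor, was at 11.2, 9.76 and 8.74 FPKM in PA and 5.34, 4.22 and 4.31 in PA+OA, a change of -0.96 ± 0.12 (SE), adjusted p = 0.000654, and -1.05 without PA+OA 1. SREBF2, which encodes SREBP-2, was at 61.6, 54.3 and 47.9 FPKM in PA and 43.9, 33.8 and 35 in PA+OA. The groups did not overlap, the change was -0.53 ± 0.14 (SE), adjusted p = 0.0311, and -0.64 without PA+OA 1, and the call was lost in 4 of the 12 single-library omissions (adjusted p = 0.14 without PA 1, 0.0937 without PA 2, 0.116 without PA+OA 2, 0.1 without PA+OA 3). MYLIP, the ubiquitin ligase IDOL and an LXR target, was at 0.69, 0.875 and 0.811 FPKM in PA and 1.2, 2.19 and 1.67 in PA+OA. All its PA libraries were under the filter, so it entered the test only through PA+OA, where it had to be higher. It rose by 0.57 ± 0.14 (SE), adjusted p = 0.026, and 0.71 without PA+OA 1, a call lost in 5 omissions (adjusted p = 0.105 without PA 1, 0.0619 without PA 2, 0.0694 without PA 3, 0.104 without PA+OA 2, 0.0714 without PA+OA 3). SREBF1, which encodes SREBP-1, was at 43.4, 37.7 and 33.4 FPKM in PA and 41.3, 28.4 and 28 in PA+OA, a change of -0.24 ± 0.17 (SE), adjusted p = 0.479, and -0.42 without PA+OA 1. Adjusted p was above 0.05 in other fits for SREBF2 (0.0613 with no filter, 0.115 with only these 2 groups fitted) and MYLIP (0.0685 with no filter, 0.0747 with equal library totals, 0.0919 with only these 2 groups fitted). Calls were gained for SREBF1 (0.0127 with array weights, 0.0474 without PA+OA 1 and PA+BMS 3).

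Enzymes of cholesterol synthesis fell in 4 of 20 members, with none rising and a median of -0.24. MSMO1, a sterol C4 demethylase, was at 9.1, 11 and 11.5 FPKM in PA and 4.24, 5.6 and 5.55 in PA+OA. All PA+OA libraries were under all PA libraries, and the change was -0.92 ± 0.13 (SE), adjusted p = 0.00128, and -0.81 without PA+OA 1. LSS, lanosterol synthase, was at 19.6, 19.2 and 16.6 FPKM in PA and 14.7, 10.8 and 10.6 in PA+OA, a change of -0.59 ± 0.13 (SE), adjusted p = 0.0168, and -0.73 without PA+OA 1, lost in 4 of the 12 single-library omissions (adjusted p = 0.0803 without PA 1, 0.0702 without PA 2, 0.0732 without PA+OA 2, 0.0688 without PA+OA 3). HMGCS1, an early enzyme of the pathway, was at 3.69, 2.82 and 3.19 FPKM in PA and 2.2, 3.43 and 3.74 in PA+OA. Its groups overlapped, and the change was -0.05 ± 0.19 (SE), with the sign turned without PA+OA 1 (0.12) and without PA 1 (0.02). The list's falls numbered 8 without PA+OA 1, 1 without PA 1, 2 without PA+OA 2 and 7 after the GC and length trend was taken out. Another fit also ended, by adjusted p, the call of LSS (0.076 with only these 2 groups fitted).

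The SREBF2 promoter is shown because it alone among the 12 tested members of the sterol control list with a listed promoter held an exact match to the letters searched for the sterol regulatory element. It spans chr22:41832855-41833104 on the plus strand (GRCh38.p14, RefSeq), with the match in capitals.
SREBF2: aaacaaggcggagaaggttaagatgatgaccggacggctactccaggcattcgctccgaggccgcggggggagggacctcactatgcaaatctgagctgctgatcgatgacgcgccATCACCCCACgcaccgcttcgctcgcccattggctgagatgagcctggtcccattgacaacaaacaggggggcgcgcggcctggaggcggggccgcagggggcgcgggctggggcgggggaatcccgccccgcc
The letters searched were those in capitals, on both strands, and the match lies 134 to 125 bases before the start. Of 27305 genes 16 held one (0.0586%), and of 15 tested cholesterol synthesis genes with a promoter none did. A shorter form, TCACNCCA, was in 2 of those 15 (13.3%), MSMO1, which fell, and MVK, which did not pass. It was in 1 of the 12 sterol control genes, SREBF2, and in 4.80% of the 27305. Other forms of the element were not searched, so the lack of a match does not show that a gene lacks one.

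Fatty acid synthesis fell in 3 of 18 tested members, with none rising and a median of -0.07. FASN, fatty acid synthase, was at 183, 161 and 123 FPKM in PA and 90.04, 57.9 and 67.5 in PA+OA. PA+OA libraries were all under PA, and the change was -1.11 ± 0.18 (SE), adjusted p = 0.0025, and -1.28 without PA+OA 1. SCD, the desaturase that makes oleate from stearate, was at 358, 284 and 286 FPKM in PA and 148, 202 and 205 in PA+OA. Its lowest library was PA+OA 1, the change was -0.75 ± 0.16 (SE), adjusted p = 0.0142, and -0.59 without PA+OA 1, and the call was lost in 1 omission (adjusted p = 0.0784 without PA 1). ACLY, ATP citrate lyase, was at 123, 114 and 104 FPKM in PA and 90.4, 81.3 and 80.7 in PA+OA and changed by -0.43 ± 0.11 (SE), adjusted p = 0.0291, and -0.48 without PA+OA 1, a call lost in 5 of the 12 single-library omissions (adjusted p = 0.132 without PA 1, 0.0993 without PA 2, 0.0957 without PA+OA 2, 0.0947 without PA+OA 3, 0.0515 without PA+BMS 2). The list's falls numbered 1 without PA 1 and 5 without PA+OA 1. Among other fits, adjusted p exceeded the threshold for SCD (0.0622 with equal library totals, 0.0793 with quantile normalization, 0.0678 with only these 2 groups fitted) and ACLY (0.0569 with quantile normalization, 0.145 with only these 2 groups fitted).

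Triglyceride and lipid droplet genes fell in 3 of 19 tested members with none rising, and the median was -0.20. DGAT2, which makes triglyceride from newly formed fatty acids, was at 1.8, 2.22 and 1.7 FPKM in PA and 1.03, 0.676 and 0.654 in PA+OA. Every PA+OA library was under every PA library, and the change was -0.70 ± 0.12 (SE), adjusted p = 0.00424, and -0.80 without PA+OA 1. AGPAT3, an acyltransferase, changed by -0.46 ± 0.12 (SE), adjusted p = 0.0281, and -0.44 without PA+OA 1, and FITM2, of droplet budding, by -0.37 ± 0.10 (SE), adjusted p = 0.0361, and -0.35 without PA+OA 1. Their calls did not hold without PA 1, PA 2, PA 3, PA+OA 2 or PA+OA 3, each of which left 1 fall in the list, while 7 fell without PA+OA 1. DGAT1, whose gene overlaps HSF1, was at 29.8, 30.1 and 26.8 FPKM in PA and 42, 27.6 and 27.3 in PA+OA. PA+OA 2 and 3 lay among the PA libraries, and the change of 0.13 ± 0.16 (SE), adjusted p = 0.745, and -0.07 without PA+OA 1 turned sign without PA+OA 1. PNPLA2, the lipase ATGL, was at 53.6, 58.3 and 51.4 FPKM in PA and 91.3, 55.8 and 62.3 in PA+OA, a change of 0.32 ± 0.19 (SE), adjusted p = 0.378, and 0.12 without PA+OA 1. PLIN2, the usual droplet coat of hepatocytes, was among the 9 listed genes under the filter. By adjusted p these fits also lost AGPAT3 (0.108 with equal library totals, 0.0699 with only these 2 groups fitted, 0.0525 without the GC and length trend) and FITM2 (0.19 with equal library totals, 0.0701 with quantile normalization, 0.106 with only these 2 groups fitted, 0.0511 with voom), and gained PNPLA2 (0.0234 without the GC and length trend).

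Genes driven by the PPAR fatty acid receptors had 1 call in 10 tested, a fall. None fell without control 2, control 3, PA 1, PA 2, PA 3 or PA+OA 2, and 2 fell without PA+OA 1. With quantile normalization 1 rose and none fell, and without the GC and length trend 1 rose and 1 fell. PDK4, a kinase that turns off pyruvate dehydrogenase, was at 37, 35.8 and 43.3 FPKM in PA and 11.8, 21.9 and 27.2 in PA+OA. The groups did not overlap, the change was -0.97 ± 0.26 (SE), adjusted p = 0.0355, and -0.64 without PA+OA 1, and the call was lost in 6 of the 12 single-library omissions (adjusted p = 0.0525 without control 2, 0.0514 without control 3, 0.0998 without PA 1, 0.0817 without PA 2, 0.119 without PA 3, 0.0654 without PA+OA 2). ANGPTL4, a lipoprotein lipase inhibitor and PPAR target, was at 99.4, 115 and 101 FPKM in PA and 203, 121 and 115 in PA+OA. Alone among the 6, PA+OA 1 was high, and the change was 0.43 ± 0.20 (SE), adjusted p = 0.254, and 0.17 without PA+OA 1. CPT1A, which admits fatty acids to mitochondria, was at 41.4, 36.4 and 35.9 FPKM in PA and 29.97, 36.4 and 38.9 in PA+OA, a change of -0.11 ± 0.13 (SE), adjusted p = 0.707, and -0.01 without PA+OA 1. Of 20 beta-oxidation genes none was called by limma or voom, with 0 higher and 1 lower at an unadjusted p under 0.05. Leaving out both PA+OA 1 and PA+BMS 3 gave 1 rise and 3 falls among them. LPCAT1, which remodels phosphatidylcholine with saturated acyl chains, was at 17.9, 17.7 and 18.1 FPKM in PA and 6.53, 7.15 and 7.98 in PA+OA. It was among the 12 largest falls, with groups far apart and a change of -1.20 ± 0.12 (SE), adjusted p = 9.19e-05, and -1.14 without PA+OA 1. Further fits that ended a call, by adjusted p, concerned PDK4 (0.118 with no filter, 0.122 with equal library totals, 0.106 with quantile normalization, 0.088 with only these 2 groups fitted). Fits that gained one concerned ANGPTL4 (0.0367 with quantile normalization, 0.011 without the GC and length trend).

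**Figure D3:**
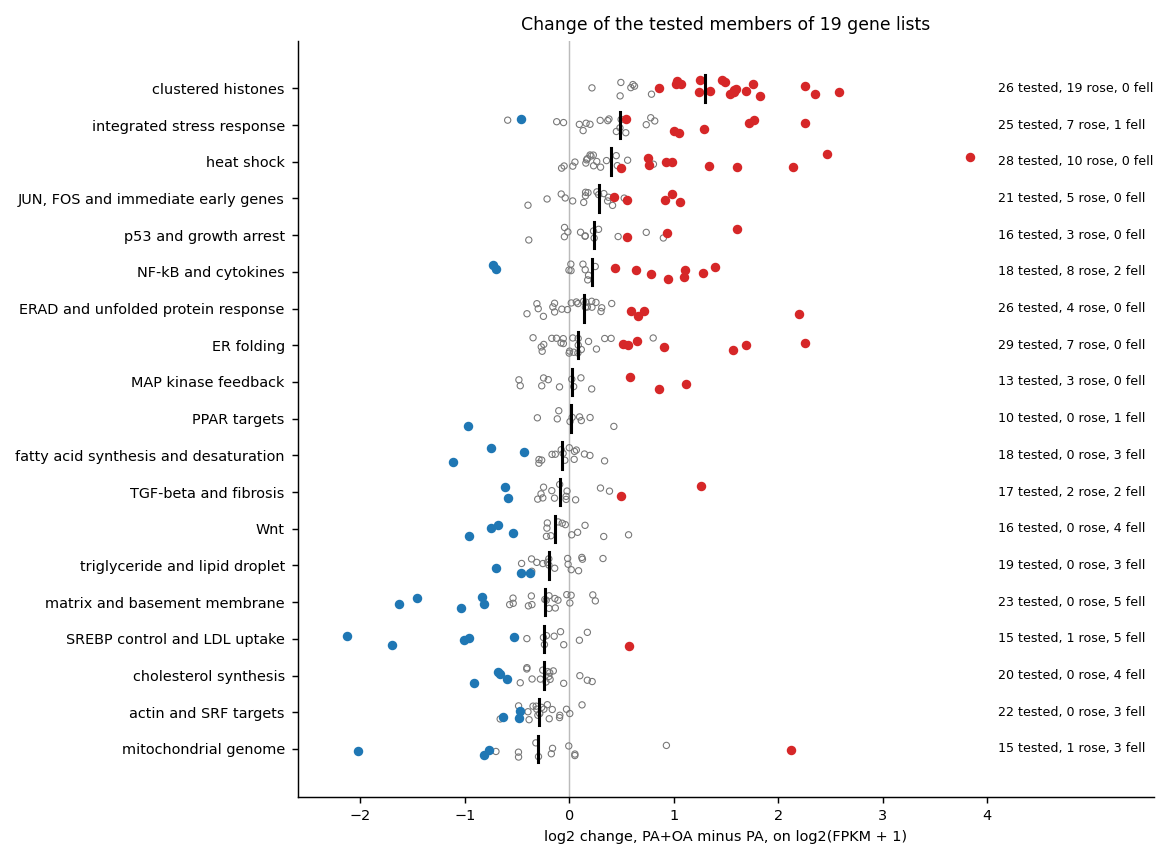
Log2 change between PA+OA and PA of each tested member of 19 gene lists, with red for genes that rose, blue for genes that fell, open circles for genes that did not pass, and a bar at the list's median. Histone genes lie highest, with a median of 1.30, and the medians of heat shock and integrated stress response genes lie above 0.

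Matrix and basement membrane genes fell in 5 of 23 tested, with none rising and a median of -0.23. HSPG2, which encodes perlecan, was at 28.3, 26.7 and 21.5 FPKM in PA and 8.41, 6.75 and 7.52 in PA+OA. Its PA+OA libraries were all under 9 FPKM and its PA libraries all over 20, a change of -1.62 ± 0.13 (SE), adjusted p = 3.53e-05, and -1.69 without PA+OA 1. LAMA5, the laminin alpha-5 chain at chromosome 20, was at 42.6, 40.9 and 36.5 FPKM in PA and 15.2, 12.6 and 13.9 in PA+OA, a change of -1.46 ± 0.11 (SE), adjusted p = 1.53e-05, and -1.52 without PA+OA 1. It overlaps ADRM1. COL5A1, a fibril-regulating collagen, was at 54.4, 58.8 and 58.4 FPKM in PA and 29.4, 27.3 and 25.4 in PA+OA, a change of -1.04 ± 0.10 (SE), adjusted p = 6.72e-05, and -1.09 without PA+OA 1. COL4A2 and COL4A1, the network collagens of basement membrane, share a promoter region and overlap. COL4A2 was at 32.8, 37.6 and 36 FPKM in PA and 21.3, 19.9 and 17.8 in PA+OA and changed by -0.82 ± 0.11 (SE), adjusted p = 0.000825, and -0.88 without PA+OA 1. COL4A1 was at 11.6, 14.3 and 15.4 FPKM in PA and 5.4, 9.33 and 7.47 in PA+OA and changed by -0.83 ± 0.16 (SE), adjusted p = 0.00614, and -0.65 without PA+OA 1. COL1A1, the main fibrillar collagen of liver scar, was at 12.4, 12.3 and 12.3 FPKM in PA and 12.5, 10.4 and 10.8 in PA+OA. Its groups overlapped and the change was -0.13 ± 0.10 (SE), adjusted p = 0.497, and -0.21 without PA+OA 1, with the sign turned when the GC and length trend was removed and a call gained with array weights (adjusted p = 0.0225). CHPF2, a chondroitin polymerising factor outside the list, was at 15.6, 16.3 and 14.7 FPKM in PA and 8, 4.95 and 5.16 in PA+OA and changed by -1.26 ± 0.14 (SE), adjusted p = 0.000274, and -1.45 without PA+OA 1. Without PA+OA 1, 7 matrix genes fell, and the count was within 1.5 times of 5 in each single-library omission. One further call was lost by adjusted p, that of COL4A1 (0.054 with equal library totals).

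TGF-beta pathway genes moved both ways, with 2 rises and 2 falls among 17 tested and a median of -0.09. BAMBI, a pseudoreceptor that damps TGF-beta signalling, rose by 0.50 ± 0.11 (SE), adjusted p = 0.0156, and 0.52 without PA+OA 1, a call lost in 3 omissions (adjusted p = 0.0681 without PA 1, 0.0668 without PA 3, 0.0703 without PA+OA 2). SMAD6, an inhibitory SMAD, changed by -0.61 ± 0.10 (SE), adjusted p = 0.00309, and -0.58 without PA+OA 1, a fall. PMEPA1, a feedback inhibitor, was at 49.9, 46.9 and 46.3 FPKM in PA and 28.5, 34.1 and 32 in PA+OA and fell, with a change of -0.58 ± 0.11 (SE), adjusted p = 0.00478, and -0.52 without PA+OA 1. TGFB1, the ligand, was at 37.7, 33.9 and 31.6 FPKM in PA and 41.8, 25 and 27 in PA+OA. PA+OA 1 was its highest library and PA+OA 2 and 3 its lowest, with a change of -0.17 ± 0.17 (SE), adjusted p = 0.652, and -0.39 without PA+OA 1 (adjusted p = 0.0305). CTGF, a matricellular protein regulated by YAP and TGF-beta, was at 24.7, 27.4 and 21.6 FPKM in PA and 55.2, 77.3 and 80.5 in PA+OA, a rise of 1.48 ± 0.20 (SE), adjusted p = 0.000895, and 1.65 without PA+OA 1. CYR61, its close relative, was at 260.2, 322 and 275 FPKM in PA and 313, 312 and 318 in PA+OA. Its groups overlapped and the change was 0.14 ± 0.21 (SE), adjusted p = 0.784, and 0.15 without PA+OA 1. Another fit lost, by adjusted p, BAMBI (0.0799 with only these 2 groups fitted), and others gained TGFB1 (0.00889 with array weights, 0.0203 without PA+OA 1 and PA+BMS 3).

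Wnt pathway genes fell in 4 of 16 tested, with none rising and a median of -0.14. LRP5, a Wnt co-receptor, was at 38.5, 34.8 and 30.03 FPKM in PA and 20.2, 15.1 and 16.6 in PA+OA, a change of -0.96 ± 0.13 (SE), adjusted p = 0.000982, and -1.07 without PA+OA 1. ZNRF3, a ligase that removes Wnt receptors, changed by -0.75 ± 0.12 (SE), adjusted p = 0.0021, and -0.65 without PA+OA 1, a fall. WNT7B, a ligand, was at 21.4, 21.2 and 18.8 FPKM in PA and 15.9, 10.5 and 11.3 in PA+OA and fell, with a change of -0.68 ± 0.14 (SE), adjusted p = 0.00916, and -0.85 without PA+OA 1. DKK1, a secreted inhibitor, changed by -0.54 with an adjusted p of 0.0386, and 9 of the 12 single-library omissions removed that call (adjusted p = 0.0508 without control 2, 0.0524 without control 3, 0.111 without PA 1, 0.151 without PA 2, 0.0616 without PA 3, 0.0534 without PA+OA 1, 0.0546 without PA+OA 2, 0.107 without PA+OA 3, 0.0571 without PA+BMS 1). One list member rose without PA+OA 1, and 1 rose without PA+BMS 3. Actin cytoskeleton genes fell in 3 of 22, with none rising and a median of -0.29. These were ACTN1 and ACTN4, actin cross-linkers, and VCL, which couples actin to adhesions, with changes of -0.47, -0.48 and -0.64, in that order (-0.51, -0.56 and -0.43 without PA+OA 1). No actin gene fell without PA 1 or PA 2, 1 fell without PA+OA 2 or PA+OA 3, and without PA+OA 1 the falls numbered 12. Other fits put adjusted p above 0.05 for WNT7B (0.0628 with only these 2 groups fitted), DKK1 (0.0926 with no filter, 0.106 with equal library totals, 0.0535 with quantile normalization, 0.0635 with only these 2 groups fitted), ACTN1 (0.104 with only these 2 groups fitted, 0.0898 without the GC and length trend), VCL (0.0743 with no filter, 0.149 with equal library totals, 0.112 with quantile normalization, 0.106 with only these 2 groups fitted) and ACTN4 (0.0536 with no filter, 0.137 with only these 2 groups fitted).

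Immediate early genes, which answer mitogen and stress signals within minutes, rose in 5 of 21 members with none falling, and the median was 0.28. JUN, a subunit of AP-1, was at 45.7, 50.6 and 43.8 FPKM in PA and 79.9, 97.2 and 89.98 in PA+OA. The groups were well separated and the rise was 0.91 ± 0.11 (SE), adjusted p = 0.000569, and 0.99 without PA+OA 1. EGR1 was at 23.1, 25.8 and 25.1 FPKM in PA and 44.1, 57.3 and 57.2 in PA+OA, a rise of 1.06 ± 0.19 (SE), adjusted p = 0.00493, and 1.19 without PA+OA 1. KLF2 was at 6.35, 9.23 and 8.53 FPKM in PA and 19.4, 13.5 and 17.9 in PA+OA, a rise of 0.98 ± 0.17 (SE), adjusted p = 0.00363, and 0.88 without PA+OA 1. FOS, the partner of JUN, was at 7.08, 7.92 and 6.13 FPKM in PA and 6.97, 8.76 and 8.15 in PA+OA. Its groups overlapped and the change was 0.16 ± 0.14 (SE), adjusted p = 0.586, and 0.24 without PA+OA 1. The list's rises numbered 3 without control 2, PA 1, PA 2, PA 3, PA+OA 2, PA+OA 3 or PA+BMS 1, and 8 with 1 fall without PA+OA 1. Feedback inhibitors of MAP kinases rose in 3 of 13 with none falling and a median of 0.02. DUSP6, a phosphatase of ERK, was at 0.53, 0.781 and 0.67 FPKM in PA and 1.78, 3.08 and 3.06 in PA+OA, a rise of 1.11 ± 0.15 (SE), adjusted p = 0.000929, and 1.30 without PA+OA 1. DUSP6 passed the filter only through the PA+OA libraries, so its direction was fixed, though the call held with no filter. DUSP5, its nuclear relative, was at 18.5, 19.5 and 15.6 FPKM in PA and 31.5, 33.2 and 34.5 in PA+OA and rose by 0.86 ± 0.15 (SE), adjusted p = 0.00391, and 0.89 without PA+OA 1. SPRY4, an inhibitor of receptor tyrosine kinase signalling, rose by 0.58 ± 0.10 (SE), adjusted p = 0.0031, and 0.57 without PA+OA 1. Feedback genes that fell numbered 2 without control 1 and 1 without PA+OA 1 or PA+BMS 3.

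Cytokine and NF-kB genes rose in 8 of 18 tested and fell in 2, with a median of 0.22. IL1A was at 1.27, 1.42 and 0.938 FPKM in PA and 4.29, 4.1 and 4.64 in PA+OA, a rise of 1.28 ± 0.11 (SE), adjusted p = 4.68e-05, and 1.29 without PA+OA 1. CXCL8, the neutrophil chemokine, was at 4.5, 4.48 and 2.01 FPKM in PA and 8.38, 8.4 and 9.12 in PA+OA. PA 3 was the lowest library, all PA+OA libraries were above PA, and the rise was 1.10 ± 0.19 (SE), adjusted p = 0.00363, and 1.12 without PA+OA 1. IL6 was at 3.18, 5.07 and 4.56 FPKM in PA and 7.62, 10.5 and 9.08 in PA+OA, a rise of 0.94 ± 0.19 (SE), adjusted p = 0.00841, and 1.05 without PA+OA 1. CXCL3, a chemokine with close copies in its cluster that leave its reads uncertain, rose by 1.11 ± 0.12 (SE), adjusted p = 0.000247, and 1.16 without PA+OA 1. LIF and IL11 belong to the IL6 family and went the other way. LIF was at 5.08, 5.65 and 5.49 FPKM in PA and 2.56, 3.25 and 2.79 in PA+OA and changed by -0.73 ± 0.10 (SE), adjusted p = 0.0011, and -0.67 without PA+OA 1. IL11 was at 9.59, 9.24 and 8.86 FPKM in PA and 6.08, 5.17 and 4.72 in PA+OA and changed by -0.70 ± 0.11 (SE), adjusted p = 0.00257, and -0.78 without PA+OA 1. The subunit RELA and the inhibitor NFKBIA changed by 0.02 each (-0.18 and -0.02 without PA+OA 1) and did not pass. Rises in the list numbered 5 without control 2, PA 1, PA+OA 2 or PA+OA 3 and 4 without PA 3. Growth arrest genes of the p53 list rose in 3 of 16 with none falling and a median of 0.24, and 5 rose without control 1 or PA+BMS 3. GADD45A, a stress sensor also under ATF4, was at 28.5, 47 and 37.1 FPKM in PA and 94.3, 141 and 111 in PA+OA, a rise of 1.60 ± 0.25 (SE), adjusted p = 0.0021, and 1.74 without PA+OA 1. PLK3, a stress-responsive kinase, rose by 0.94 ± 0.17 (SE), adjusted p = 0.00417, and 0.78 without PA+OA 1. CDKN1A and MDM2, direct p53 targets, changed by 0.23 and -0.01 (0.07 and 0.15 without PA+OA 1) and did not pass. TXNIP, an inhibitor of thioredoxin and of glucose uptake, was at 1.57, 1.23 and 1.52 FPKM in PA and 4.75, 5.69 and 6.11 in PA+OA. It was at least 3 times as high in each PA+OA library as the PA mean of 1.44 FPKM, a rise of 1.42 ± 0.12 (SE), adjusted p = 3.53e-05, and 1.503 without PA+OA 1.

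Transcripts of the mitochondrial genome did not move together. Of 15 rRNA and protein-coding genes 1 rose and 3 fell, with a median of -0.29. MT-RNR1, the 12S rRNA, was at 1076, 728 and 765 FPKM in PA and 4721, 3242 and 3235 in PA+OA. Every PA+OA library was above every PA library, with PA+OA 1 highest, and the rise was 2.12 ± 0.26 (SE), adjusted p = 0.000526, and 1.94 without PA+OA 1. Both rRNAs together held 2.10%, 1.505% and 1.64% of reads in PA+OA and 0.977%, 0.663% and 0.744% in PA. Their share was 0.610%, 0.629% and 0.784% in control and 0.780%, 0.804% and 1.51% in PA+BMS. Of these rRNAs only MT-RNR1 was called, and MT-RNR2 did not pass. MT-ND6, the only protein-coding gene on the light strand, was at 1350.4, 1014 and 952 FPKM in PA and 300.3, 275 and 233 in PA+OA, with a change of -2.02 ± 0.28 (SE), adjusted p = 0.00115, and -2.10 without PA+OA 1. MT-ND3, a subunit of complex I, was at 2299.6, 2077 and 1821 FPKM in PA and 1447, 1033 and 1076 in PA+OA. It changed by -0.81 ± 0.18 (SE), adjusted p = 0.0137, and -0.96 without PA+OA 1, a call lost in 4 of the 12 omissions (adjusted p = 0.0764 without PA 1, 0.0572 without PA 2, 0.068 without PA+OA 2, 0.058 without PA+OA 3). MT-CO2, of complex IV, was at 12193, 11789 and 10286 FPKM in PA and 8294, 5953 and 6105 in PA+OA and changed by -0.76 ± 0.20 (SE), adjusted p = 0.0357, and -0.92 without PA+OA 1, lost in 9 single-library omissions (adjusted p = 0.0592 without control 2, 0.0637 without control 3, 0.144 without PA 1, 0.122 without PA 2, 0.0735 without PA 3, 0.149 without PA+OA 2, 0.126 without PA+OA 3, 0.0538 without PA+BMS 1, 0.0541 without PA+BMS 2). Falls numbered 1 without PA 1, PA 2, PA+OA 2 or PA+OA 3, and rises 2 without PA+BMS 3. Genes annotated as mitochondrial tRNAs, examined after their values were seen, fell in 13 of 20 with none rising and a median of -2.12, and in 13 without PA+OA 1. Falls numbered 9 of 20 without PA 1, 10 without PA 2 and 9 with no filter. At a filter of 5 FPKM 13 of 13 fell. Genes under 5 FPKM in every PA+OA library, such as MT-TE (2.87, 0 and 0 FPKM), passed that filter only through PA, which fixed their direction. The falls over all libraries lay on both strands, 8 of 12 plus-strand and 5 of 8 minus-strand genes. Several rest on few reads in PA+OA and passed the filter mainly through PA, where they are higher. MT-TM, for example, was at 12.3, 6.21 and 5.17 FPKM in PA and 0, 0 and 1.55 in PA+OA. MT-TY, the tyrosine tRNA, was at 320.0, 182 and 185 FPKM in PA and 34, 21.5 and 24 in PA+OA, a change of -3.04 ± 0.30 (SE), adjusted p = 9.33e-05, and -3.22 without PA+OA 1. MT-TN, the asparagine tRNA, was at 2240.1, 1843 and 1392 FPKM in PA and 582, 386 and 478 in PA+OA, a change of -1.91 ± 0.23 (SE), adjusted p = 0.000526, and -2.06 without PA+OA 1. These genes lie within long precursor transcripts, and reads of precursors cannot be told apart here from reads of mature tRNAs. Of 32 nuclear subunits of oxidative phosphorylation none was called by limma or voom and none had an unadjusted p under 0.05. Their median moved from -0.06 to -0.22 without PA+OA 1, where 1 fell, and 5 fell without PA+OA 1 and PA+BMS 3. Of 50 cytosolic ribosomal protein genes none was called by either, with 0 higher and 1 lower at an unadjusted p under 0.05 and a median of -0.05. That median was -0.26 without PA+OA 1, and 7 of the 50 fell without PA+OA 1 and PA+BMS 3. Mitochondrial calls lost in other fits, by adjusted p, were MT-ND3 (0.105 with no filter, 0.0678 with only these 2 groups fitted) and MT-CO2 (0.594 with no filter, 0.104 with only these 2 groups fitted).

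**Figure D4:**
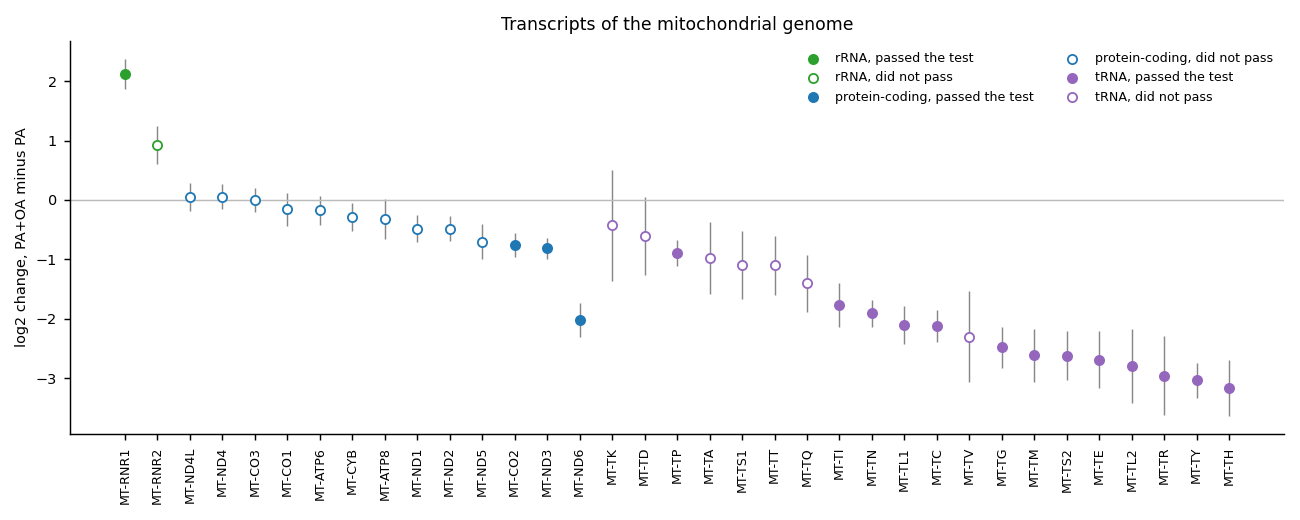
Log2 change between PA+OA and PA, with SE, of the tested mitochondrial rRNA (green), protein-coding (blue) and tRNA (purple) genes, each class ordered by change. MT-RNR1 lies at 2.12, while MT-ND6 at -2.02 and most tRNA genes lie far under 0.

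The remaining largest falls were in genes outside the lists. CCNF, cyclin F, was at 26, 22.2 and 20.9 FPKM in PA and 11.6, 8.28 and 8.45 in PA+OA, a change of -1.21 ± 0.15 (SE), adjusted p = 0.000526, and -1.35 without PA+OA 1. ZBED1, a zinc finger DNA-binding protein, was at 74.2, 71.7 and 73.3 FPKM in PA and 34.1, 32.4 and 31.9 in PA+OA. Its groups were tight and far apart, with a change of -1.13 ± 0.10 (SE), adjusted p = 3.53e-05, and -1.16 without PA+OA 1. PLCL2, a phospholipase C-like protein without catalytic activity, was at 6.22, 5.57 and 6.1 FPKM in PA and 1.73, 2.38 and 2.75 in PA+OA, a change of -1.09 ± 0.17 (SE), adjusted p = 0.0021, and -0.97 without PA+OA 1. MTCL1, a microtubule cross-linker, was at 7.39, 6.11 and 6.23 FPKM in PA and 1.55, 2.99 and 3.44 in PA+OA. PA+OA 1 was its lowest library, and the change was -1.08 ± 0.19 (SE), adjusted p = 0.00392, and -0.84 without PA+OA 1. CEBPA, a hepatocyte transcription factor, was the only called member of the hepatocyte markers. It was at 4.18, 3.58 and 3.43 FPKM in PA and 11.3, 6.61 and 6.56 in PA+OA, a rise of 0.92 ± 0.16 (SE), adjusted p = 0.00436, and 0.68 without PA+OA 1.

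For genes at the head of each group, levels in untreated and BMS-309403-treated cells were set beside those above. These comparisons share the PA+OA libraries with the one described, so they are not independent of it, and calls in them were common (51.2% of genes against PA+BMS, 38.0% against control). Against PA+BMS the calls fell from 5669 to 3055 without PA+BMS 3 and 3624 without PA+OA 1, and against control from 4209 to 2461 without control 2 and 2628 without control 3. No call of a gene given below changed when 1 library was left out. Means are over 3 libraries with their SD. INSIG1 averaged 44.6 ± 0.261 FPKM in control, 60.7 ± 1.21 FPKM in PA, 18.1 ± 2.38 FPKM in PA+OA and 93.4 ± 1.14 in PA+BMS, which put PA+OA at -1.26 (adjusted p = 8.86e-06) against control and -2.31 (adjusted p = 2.17e-07) against PA+BMS. PA+OA was therefore the lowest of the 4 groups for this gene.

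Chaperone and stress genes had other orders. HSPA6 averaged 2.83 ± 2.21 FPKM in control, 0.779 ± 0.08 FPKM in PA, 24.6 ± 3.7 FPKM in PA+OA and 0.206 ± 0.0709 in PA+BMS, with differences of 2.97 (adjusted p = 0.000159) from control and 4.40 (adjusted p = 2.96e-05) from PA+BMS. HSPA1A averaged 157 ± 80.4 FPKM in control, 92.4 ± 8.98 FPKM in PA, 514 ± 16.2 FPKM in PA+OA and 31 ± 3.3 in PA+BMS, with 1.88 (adjusted p = 0.00135) and 4.01 (adjusted p = 2.13e-05). The mean with palmitate alone lay under that of control for both of these, and the mean with PA+OA above it. HSPA5 averaged 146 ± 17 FPKM in control, 171 ± 2.46 FPKM in PA, 563 ± 107 FPKM in PA+OA and 193 ± 7.95 in PA+BMS, with 1.93 (adjusted p = 4.59e-06) and 1.52 (adjusted p = 7.14e-05). HERPUD1 averaged 14.6 ± 5.17 FPKM in control, 41.2 ± 2.66 FPKM in PA, 193 ± 8.3 FPKM in PA+OA and 33.5 ± 6.1 in PA+BMS, with 3.68 (adjusted p = 2.3e-07) and 2.51 (adjusted p = 1.53e-05). DDIT3 averaged 6.69 ± 6.32 FPKM in control, 22.7 ± 1.51 FPKM in PA, 113 ± 9.55 FPKM in PA+OA and 29.8 ± 8.59 in PA+BMS, with 4.19 (adjusted p = 2.41e-05) and 1.92 (adjusted p = 0.00476). For HERPUD1 and DDIT3 control was the lowest group and PA+OA the highest. ATF3 averaged 6.16 ± 3.42 FPKM in control, 36.5 ± 4.43 FPKM in PA, 122 ± 6.1 FPKM in PA+OA and 61 ± 12.8 in PA+BMS, with 4.20 (adjusted p = 8.66e-07) and 1.01 (adjusted p = 0.0105), and the difference from PA+BMS was lost when library totals were set equal (adjusted p = 0.0531) or quantile-normalised (adjusted p = 0.0901), and without both PA+OA 1 and PA+BMS 3 (adjusted p = 0.0706).

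Among the remaining groups, HIST1H2AC averaged 9 ± 1.44 FPKM in control, 10.4 ± 0.901 FPKM in PA, 67.8 ± 13.3 FPKM in PA+OA and 11.2 ± 2.46 in PA+BMS, with differences of 2.77 (adjusted p = 9.58e-07) from control and 2.50 (adjusted p = 9.7e-06) from PA+BMS. PA+OA alone was high for this gene. LAMA5 averaged 40.4 ± 1.53 FPKM in control, 40.0 ± 3.13 FPKM in PA, 13.9 ± 1.29 FPKM in PA+OA and 21.9 ± 1.78 in PA+BMS, with -1.48 (adjusted p = 2.9e-06) and -0.62 (adjusted p = 0.00189). HSPG2 averaged 19 ± 1.5 FPKM in control, 25.5 ± 3.56 FPKM in PA, 7.56 ± 0.834 FPKM in PA+OA and 14.8 ± 1.95 in PA+BMS, with -1.22 (adjusted p = 5.43e-05) and -0.88 (adjusted p = 0.00099). The PA+BMS level lay between PA+OA and PA for both basement membrane genes. MT-ND6 averaged 778 ± 27.1 FPKM in control, 1106 ± 214 FPKM in PA, 269.6 ± 33.8 FPKM in PA+OA and 1112 ± 591 in PA+BMS, with -1.53 (adjusted p = 0.00171) and -1.93 (adjusted p = 0.000749). MT-RNR1 averaged 741 ± 127 FPKM in control, 856 ± 191 FPKM in PA, 3733 ± 856 FPKM in PA+OA and 819 ± 284 in PA+BMS, with 2.32 (adjusted p = 5.95e-05) and 2.22 (adjusted p = 0.000207). For PDK4 the means were 24.6 ± 2.26 FPKM in control, 38.7 ± 4.03 FPKM in PA, 20.3 ± 7.82 FPKM in PA+OA and 52 ± 15.3 in PA+BMS, and the differences -0.34 (adjusted p = 0.303) and -1.35 (adjusted p = 0.0027). The difference from control was -0.01 without PA+OA 1 and -0.58 without PA+OA 3.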

How the data were processed

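Polyadenylated RNA of 12 HepaRG libraries was sequenced on an Illumina NovaSeq, per the labels' protocols. The authors deposited FPKM for 58735 genes. Tools listed, with no role, in the submitters' processing notes are featureCounts 1.5.0-p3, HISAT2 2.0.5 and CASAVA. The sources used here give no genome build, annotation or strand setting; gene identifiers, symbols, starts and ends all equalled those of GENCODE 29 on GRCh38.

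Whole reads could be recovered from the FPKM (100% of values, tolerance 0.001). They numbered 16059128 to 19971190 per library and served as an alternative in voom, while tests used FPKM. Reads were 0.879 to 1.21 times the library size that the FPKM imply, and median-of-ratios factors of the FPKM were 1 in every library, so the deposited scale already equals that one. Log2(FPKM + 1) of 11070 genes was fitted in R 4.3.3 by limma 3.58.1. The model had a mean for each of the 4 groups of 12 libraries, left 8 residual degrees of freedom, and used trended eBayes. P-values were two-sided, with Benjamini-Hochberg adjustment and a threshold of 0.05. Reads were simulated for this comparison over 10541 genes with an assumed dispersion of 0.01. In them 99% of 2-fold and 64% of 1.5-fold changes were recovered, and 7.91% of calls were false. The real PA+OA libraries differed by a chi-square per gene of 7.14 to 74.8, and the PA libraries by 8.74 to 14.2. Recovery at the spread of the real libraries was not tested.

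Members and lists were chosen with earlier results of these data known, and lists are described by counts and medians. Genes named are the 12 largest rises and 12 largest falls among called protein-coding genes of at least 5 FPKM in a group mean with no overlap between libraries, per list up to 6 called members of smallest p, and fixed genes named whatever their result. List members named beside a motif or as not passing, the mitochondrial tRNA genes and the noncoding classes were chosen after their values were seen. Of 135 genes reached by the rule, 36 overlap another gene of at least 1 FPKM (DDIT3 overlaps MARS, DNAJB9 overlaps PNPLA8), so shared reads are uncertain. Promoters are RefSeq's, and genes without one in the table were left out of motif counts. A few named-rule genes are not reported here.

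Results were recomputed at a pseudocount of 0.1, at a filter of 5 FPKM or none, with median-of-ratios scaling, equal library totals, quantile normalization, only the 2 groups, a replicate block, array weights, removal of GC and length trends (natural splines, 5 degrees of freedom), voom, each library left out in turn, and PA+OA 1 with PA+BMS 3 left out. Same-numbered control and PA+OA libraries had correlations of 0.515, 0.317 and 0.184 between their deviations. Differently numbered pairs of these groups ran from -0.485 to 0.43, so a pairing by number is not clear. The replicate block gave 5129 calls against control in place of 4209 and changed no call named for that comparison. Figures used matplotlib 3.10.9 in Python 3.11.15.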

Additional observations from a re-analysis of the deposited data

How the results depend on the processing

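The count of 493 rises was 269 at a filter of 5 FPKM, 287 with only the 2 groups fitted, 801 with the GC and length trend removed, 1794 with array weights and 1311 without PA+OA 1 and PA+BMS 3, and single-library omissions gave 267 to 816. The count of 467 falls was 204, 806, 2179 and 1726 with the 2 groups alone, the trend removed, array weights and both libraries left out, and 219 to 1165 over the omissions. Genes called at 2-fold, 133, were 236 at a pseudocount of 0.1 and 253 with voom, where low values are shrunk less. Calls numbered 486, 526 and 613 without PA 1, 2 and 3 and 1981, 557 and 610 without PA+OA 1, 2 and 3. Replicate numbers did not pair PA with PA+OA: correlations of same-numbered PA and PA+OA deviations were -0.0355, -0.184 and 0.274, and the replicate block gave 1179 calls, 605 up, 574 down and 138 at 2-fold. Sign changes came only in genes that did not pass: HMGCS1 (array weights 0.125, both libraries left out 0.119, single omissions -0.163 to 0.119), DGAT1 (array weights -0.0601, both left out -0.0721, single omissions -0.0721 to 0.23), HSF1 (single omissions -0.319 to 0.0725) and COL1A1 (trend removed 0.0551). The cause was not tested. Median-of-ratios factors were 1 in every library, so that scaling changed nothing.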

Other observations

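Genes of autophagy and lysosomes moved in both directions, with 3 of 27 tested members rising and 2 falling and a median log2 change of 0.00. MAP1LC3B, which encodes the autophagosome protein LC3B, was at 20.3, 23.6 and 24.9 FPKM in PA and 31.2, 45.4 and 47.2 in PA+OA. Lowest of its group was PA+OA 1, still above every PA library, and the rise was 0.80 ± 0.15 (SE), adjusted p = 0.00594, and 0.99 without PA+OA 1. ATG16L1, part of the complex that attaches lipid to LC3, was at 8.01, 8.87 and 9.36 FPKM in PA and 5.66, 5.92 and 5.26 in PA+OA, and fell with a change of -0.56 ± 0.10 (SE), adjusted p = 0.00535, and -0.56 without PA+OA 1. The list's other rises, NBR1 and GABARAPL1, were lost without control 2, control 3, PA 1, PA 2, PA 3, PA+OA 2, PA+OA 3 or PA+BMS 2, each of which left 1 rise; falls numbered 1 without PA 1, PA 2 or PA+OA 3 and 4 without PA+OA 1. Other fits, by adjusted p, also lost NBR1 (0.0989 with no filter, 0.116 with equal library totals, 0.0892 with only these 2 groups fitted) and GABARAPL1 (0.097 with no filter, 0.0619 with only these 2 groups fitted).

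Of the 18 tested genes of glucose uptake and TXNIP, 3 rose and none fell, with a median of -0.09 and 12 of the 18 lower in PA+OA; without PA+OA 1, 3 rose and 2 fell. SLC2A3, the transporter GLUT3, was at 3.07, 3.17 and 3.47 FPKM in PA and 5.25, 6.93 and 6.41 in PA+OA, a rise of 0.76 ± 0.12 (SE), adjusted p = 0.00294, and 0.86 without PA+OA 1. SLC2A1, the transporter GLUT1, was at 33.1, 33.3 and 29.98 FPKM in PA and 57.2, 47.3 and 45.7 in PA+OA, a rise of 0.62 ± 0.13 (SE), adjusted p = 0.0128, and 0.52 without PA+OA 1, lost in 1 single-library omission (adjusted p = 0.0586 without PA 3). CTH, of cysteine synthesis, was at 21.3, 21.6 and 25.6 FPKM in PA and 37.9, 43.1 and 41.5 in PA+OA, a rise of 0.81 ± 0.13 (SE), adjusted p = 0.0021, and 0.87 without PA+OA 1. OSGIN1, an oxidative stress-induced growth inhibitor, was at 25.4, 30.2 and 25.6 FPKM in PA and 78.8, 48.1 and 47.7 in PA+OA, a rise of 1.04 ± 0.20 (SE), adjusted p = 0.00652, and 0.80 without PA+OA 1. It was the only call among 22 tested NRF2 targets over all libraries, while 2 rose and 3 fell without PA+OA 1. IRF7, an interferon regulatory factor, was at 5.53, 5.48 and 4.84 FPKM in PA and 14.9, 9.82 and 10.3 in PA+OA, a rise of 0.99 ± 0.19 (SE), adjusted p = 0.00647, and 0.82 without PA+OA 1. OAS3 fell and none of the other 16 tested interferon-stimulated genes passed; no member fell without PA 1, and 2 rose without control 1, control 2 or PA+BMS 3.

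Antisense and long intergenic noncoding genes were called more often upward than downward. Not every noncoding class did so, with 0 rises and 13 falls in mitochondrial tRNA genes and 2 and 3 in microRNAs. Of 345 antisense genes 29 rose (8.41%) and 3 fell (0.87%), and of 278 long intergenic noncoding RNAs 25 rose (8.99%) and 8 fell (2.88%). Protein-coding genes had 399 rises (4.13%) and 429 falls (4.44%) among 9662. Without PA+OA 1 the antisense calls were 34 and 12 and the intergenic ones 28 and 10. Antisense rises numbered 9 without PA 1, 17 without PA 2 or PA 3, 16 without PA+OA 2 and 12 without PA+OA 3. Intergenic rises numbered 14 without PA 1 and 15 without PA+OA 2. At a filter of 5 FPKM, 6 of 54 antisense genes rose and 2 fell, and 6 of 42 intergenic genes rose and 3 fell. Of all 6214 genes tested at that filter 269 rose and 405 fell. A gene that passed either filter only through the PA+OA libraries had to be higher there, so all these counts are descriptions. Since the strand setting of the counting is not given in the sources used here, antisense values may share reads with the genes they overlap. These classes were examined after their values were seen.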
